A study of Mus musculus with 2 samples.

Results

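The Sox family members described here are 7 genes, Sox4, Sox5, Sox6, Sox8, Sox9, Sox11 and Sox12, chosen by symbol among 18193 genes named on the array, with all 32 probe sets that carry one of these symbols. The cells were CD11b-negative cells (CD11b is a myeloid surface protein) from the calvariae, the skull roof bones, of newborn mice, and no strain is named in the sources used here. They were cultured with ascorbic acid at 50 µg/ml and β-glycerophosphate at 10 mM, the usual additions for collagen deposition and mineral formation, for 12 days (1 sample) or for 5 days (1 sample), with no further treatment. Total RNA of each sample was hybridised to 1 Affymetrix array. There was 1 array per day, so there was no replicate error and no test, and every difference compares these 2 arrays.

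Sox proteins bind DNA through an HMG box, a domain that sits in the minor groove and bends the helix, and are sorted into groups by the similarity of that box. Sox9, of the SoxE group, is required for cartilage formation in mice, and the SoxD proteins Sox5 and Sox6, which have no activation domain of their own, bind beside it at cartilage genes. The SoxC proteins Sox4, Sox11 and Sox12 are transcriptional activators of progenitor cells in the embryonic skeleton, nervous system and other tissues.

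The 2 arrays had been scaled to the same trimmed mean, and the 60th percentile of each array was used as a floor, which was 44.8 in signal units at day 12 and 46.6 at day 5. A gene was counted as measured where its brightest probe set reached the floor on at least 1 array, and as higher or lower where the ratio of day 12 over day 5 was at least 2-fold. A signal below the floor was raised to it, so such a ratio is only a bound, marked by the words "at least". By these rules 10479 genes were measured, with a median log2 ratio of -0.05 and quartiles of -0.27 and 0.17. Of the listed osteoblast markers that were named on the array, Sp7, Alpl, Ibsp and Col1a1 were above the floor on both arrays, with a summed signal of 24282 at day 12 and 8206 at day 5, and Runx2 and Bglap were not analysed here. All 6 chondrocyte markers were above the floor at day 5 and 5 of them at day 12, with a summed signal of 11797 at day 12 and 29063 at day 5. Itgam, which encodes CD11b, lay below the floor on both arrays. The other 5 of 6 myeloid markers were measured and each was past 2-fold, higher at day 12, where 3.56% of all measured genes were. The summed signal over the myeloid list was 3747 at day 12 and 1415 at day 5. All 6 endothelial markers lay below the floor on both arrays. Of the glial, adipocyte and muscle markers named on the array, 2 of 4, 4 of 4 and 2 of 6 were measured. Their summed signals over each list were 632.5, 277.3 and 153.1 at day 12 against 1370, 452.7 and 341.3 at day 5. Most of the glial sum came from 1 gene, S100b, with 590.4 at day 12 and 1290 at day 5. Sox10 and Erbb3 lay below the floor on both arrays, and Cdh19 reached it at day 5 only.

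Between the days 5 of the 6 measured Sox genes had a lower signal at day 12, and Sox6 alone had a higher one. Sox5 was 2.53-fold and Sox9 1.64-fold lower at day 12, and Sox11, below the floor at day 12, gave only a bound and no place in an order. Counted at 2-fold, 1 of 6 measured members was lower at day 12, where 1.73% of all measured genes were, and 0 of 6 were higher, where 3.56% of all measured genes were. The count of 1 is a single gene and describes Sox5 only, with Sox11 counted at its bound. Of the 16 measured Sox probe sets, 3 were at least 2-fold lower, all of Sox5, where 1.72% of the 17431 measured probe sets were, and none was at least 2-fold higher, where 3.16% were. A log2 ratio under 0 was found in 5 of 6 members and in 56.4% of all measured genes. Sox11 is among the 5, but it reached the floor at day 5 only, so its ratio could only fall under 0. The share over all measured genes also includes genes that reached the floor on 1 array only. The median over the 6 members, Sox11 at its bound, was -0.41. Sox8 lay below the floor on both arrays. Because the RNA came from whole cultures, fewer cells of a type and less RNA per cell cannot be told apart.

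**Figure D1:**
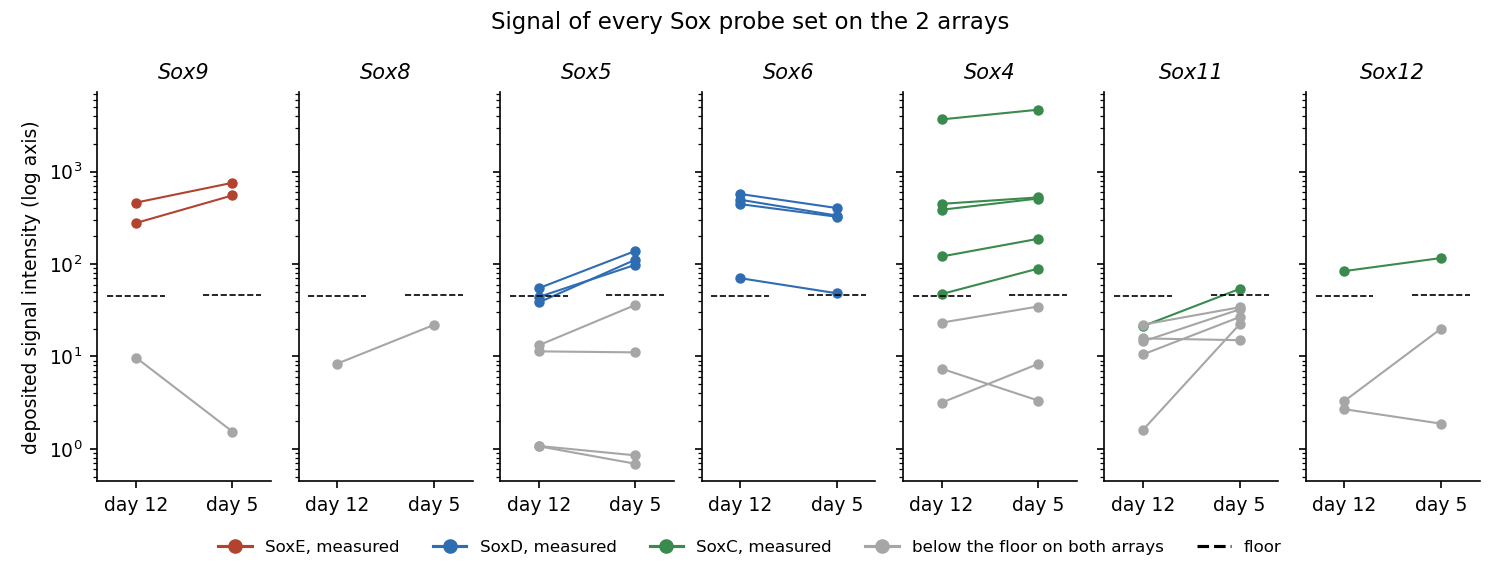
Deposited signal intensity (log axis) of each of the 32 probe sets of the 7 Sox genes at day 12 and at day 5, with the 2 values of a probe set joined by a line and the floor of each array dashed. Coloured probe sets were measured, grey ones lay below the floor on both arrays, and the lines of measured probe sets run lower at day 12 for every gene but Sox6.

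In the SoxE group, Sox9 was lower at day 12 by both of its measured probe sets. Its brightest probe set had signals of 462.0 at day 12 and 757.7 at day 5, a log2 ratio of -0.71. The other had signals of 277.8 at day 12 and 553.3 at day 5, a log2 ratio of -0.99, which is 1.99-fold and just short of the threshold. Both probe sets thus stayed well above the floor at day 12, and 4.57% of measured genes had a lower log2 ratio than the brighter one. The remaining Sox9 probe set was far below the floor, at 9.72 at day 12 and 1.53 at day 5. Sox8, whose loss in mice is known to bring early osteoblast differentiation and low bone mass, had 1 probe set, with signals of 8.35 at day 12 and 21.9 at day 5. Both values are below the floor, so no direction is given for it.

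The SoxD genes Sox5 and Sox6 differed in opposite directions. Their proteins are close relatives with overlapping functions in the cartilage of mice. The brightest probe set of Sox5 had signals of 54.7 at day 12 and 138.6 at day 5, a log2 ratio of -1.34. A further Sox5 probe set had 38.4 at day 12 and 111.4 at day 5, at least 2.49-fold lower at day 12. The last had 43.9 at day 12 and 98.1 at day 5, at least 2.19-fold lower. All 3 measured Sox5 probe sets were therefore past 2-fold, and all 3 stood close to the floor at day 12. Among the 10479 measured genes, 69 had a lower log2 ratio than Sox5. Sox5 belonged to the dimmest of 4 equal groups of measured genes by signal, and in that group 2.94% of genes were at least 2-fold lower at day 12. The other 4 Sox5 probe sets lay below the floor on both arrays.

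Sox6 was higher at day 12 by all 4 of its probe sets, each above the floor on both arrays and none past 2-fold. The brightest had signals of 572.8 at day 12 and 403.8 at day 5, a log2 ratio of 0.50. The others had 496.5 at day 12 and 334.5 at day 5 (log2 ratio 0.57), 445.0 at day 12 and 325.0 at day 5 (0.45), and 70.3 at day 12 and 48.2 at day 5 (0.54). The 4 log2 ratios spanned 0.12, where the median span over the 569 genes with at least 4 measured probe sets was 0.44. In 43.1% of those 569 genes all measured probe sets lay on the same side of 0. A higher log2 ratio than that of Sox6 was found in 8.87% of measured genes. The log2 ratios of Sox6 and Sox5 were 1.84 apart by their brightest probe sets. The lowest Sox6 probe set stood at least 1.58 above the highest Sox5 one, whose ratio is a bound. That gap is larger than the median difference of 0.17 between the 2 brightest probe sets of a gene, taken over 4446 genes, which covers probe error and not differences between cultures.

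The stretches before RefSeq start sites of the SoxD pair are shown because these genes differed in opposite directions. Each is the 250 bases before a start site in GRCm38.p6, on the minus strand, with matches to ACAAAG or ACAATG, letters that Sox proteins are known to bind, on either strand in capitals.
Sox5, chr6:143947107-143947356: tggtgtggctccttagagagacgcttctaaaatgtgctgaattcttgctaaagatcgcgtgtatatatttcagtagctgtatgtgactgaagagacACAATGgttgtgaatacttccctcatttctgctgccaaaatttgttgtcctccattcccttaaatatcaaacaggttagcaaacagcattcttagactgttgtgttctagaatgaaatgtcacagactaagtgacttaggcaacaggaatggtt
Sox6, chr7:116038745-116038994: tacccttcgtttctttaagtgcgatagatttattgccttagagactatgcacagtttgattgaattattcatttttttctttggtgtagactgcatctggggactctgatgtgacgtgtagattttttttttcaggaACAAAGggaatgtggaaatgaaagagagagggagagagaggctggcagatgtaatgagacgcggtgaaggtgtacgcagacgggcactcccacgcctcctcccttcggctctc
The Sox5 stretch held 1 match to ACAATG, beginning 154 bases before the start, and the Sox6 stretch held 1 match to ACAAAG, beginning 113 bases before it. Either motif was present in 25.2% of the 32851 stretches of the same length in the table. The Sox6 stretch is the most upstream of 6 given for that gene, and the arrays do not tell which start was in use. The 6 differed in these matches. The one at chr7:115995087-115995336 held 2 to ACAAAG and 2 to ACAATG, and the one at chr7:115801610-115801859 held neither.

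**Figure D2:**
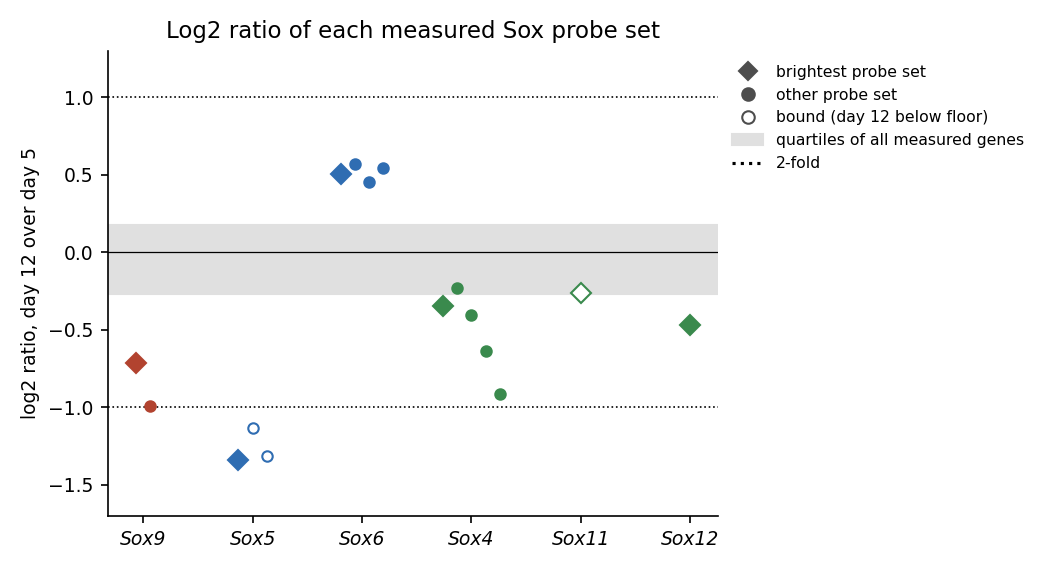
Log2 ratio of day 12 over day 5 for each of the 16 measured probe sets of 6 Sox genes. Diamonds are the brightest probe set of a gene, open symbols are bounds, the grey band spans the quartiles of all measured genes (-0.27 to 0.17) and dotted lines mark 2-fold; the 3 Sox5 probe sets lie past the lower line and the 4 Sox6 probe sets above the band.

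In the SoxC group all 7 measured probe sets had a lower signal at day 12, but 5 of the 7 are of Sox4 alone. Of the 7, 6 reached the floor at both days, and these were less than 2-fold lower. That of Sox11 reached it at day 5 only, so it could only be lower and gave only a bound. The 7 are thus not separate observations of the group. A lower signal was also common, with a median log2 ratio of -0.06 over all named measured probe sets. Among all measured genes 56.4% had a log2 ratio under 0. Sox4, whose reduced dose lowers bone mass in mice, was measured by 5 of its 8 probe sets. Its brightest probe set had 3679 at day 12 and 4684 at day 5, a log2 ratio of -0.35. The next had 448.3 at day 12 and 526.2 at day 5, a log2 ratio of -0.23, and another had 386.8 at day 12 and 511.8 at day 5, a log2 ratio of -0.40. The remaining ones had 120.6 at day 12 and 187.6 at day 5, a log2 ratio of -0.64, and 47.3 at day 12 and 89.2 at day 5, a log2 ratio of -0.91. All 5 were lower at day 12, but the size ranged from 1.17-fold to 1.88-fold, a span of 0.68 in the log2 ratio, wider than the median of 0.44 over genes with at least 4 measured probe sets. The 2 dimmest of the 5 measured Sox4 probe sets gave the lowest ratios. A lower log2 ratio than that of the brightest probe set was found in 19.1% of measured genes.

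Sox12, which is dispensable in mice where Sox4 and Sox11 are present, had 1 measured probe set of 3, with signals of 83.9 at day 12 and 116.1 at day 5, a log2 ratio of -0.47. That ratio was lower than those of most genes, with 11.9% of measured genes below it. Sox11, which is required for normal skeletal development in mice, had 6 probe sets, of which 1 reached the floor at day 5 and none at day 12. The signal of that probe set was 21.3 at day 12 and 53.8 at day 5, at least 1.20-fold lower at day 12. Sox11 was thus at the limit of what these arrays measured. The 16 Sox probe sets below the floor on both arrays, over all 7 genes, had signals up to 23.2 at day 12 and 36.0 at day 5, and 9 of the 16 had the lower signal at day 12.

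Of the SoxC genes Sox4 and Sox12 were lower at day 12, and Sox11, above the floor at day 5 only, could only be lower. The stretches before the start sites of all 3 are shown. They are again 250 bases on the minus strand of GRCm38.p6 from RefSeq, with matches to CCAAT on either strand in capitals, the CCAAT box being a common promoter element.
Sox4, chr13:28953700-28953949: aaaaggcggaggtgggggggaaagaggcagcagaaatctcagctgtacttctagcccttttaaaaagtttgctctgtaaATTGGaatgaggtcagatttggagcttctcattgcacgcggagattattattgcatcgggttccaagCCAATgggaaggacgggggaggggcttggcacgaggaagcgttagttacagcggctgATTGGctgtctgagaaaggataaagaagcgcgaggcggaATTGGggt
Sox11, chr12:27342719-27342968: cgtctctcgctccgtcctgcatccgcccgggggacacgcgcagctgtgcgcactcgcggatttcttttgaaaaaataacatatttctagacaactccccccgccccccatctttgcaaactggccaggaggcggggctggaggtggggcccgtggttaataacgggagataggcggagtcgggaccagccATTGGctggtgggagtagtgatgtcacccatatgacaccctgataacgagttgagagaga
Sox12, chr2:152398047-152398296: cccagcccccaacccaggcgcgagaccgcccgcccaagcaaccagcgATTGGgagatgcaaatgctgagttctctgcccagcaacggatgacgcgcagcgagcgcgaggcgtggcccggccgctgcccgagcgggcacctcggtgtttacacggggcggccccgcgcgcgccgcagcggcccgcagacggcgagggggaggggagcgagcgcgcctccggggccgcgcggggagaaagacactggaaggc
Matches to CCAAT or its reverse complement ATTGG numbered 4 before Sox4, beginning 171, 104, 47 and 8 bases before the start. Sox11 and Sox12 had 1 match each, beginning 60 and 203 bases before the start. The letters were present in 33.8% of the 32851 stretches, and at 2 or more places in 10.1%. Neither ACAAAG nor ACAATG was found in these 3 stretches, and no printed matches overlapped each other. A match describes the letters of the stretch and not a bound site.

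**Figure D3:**
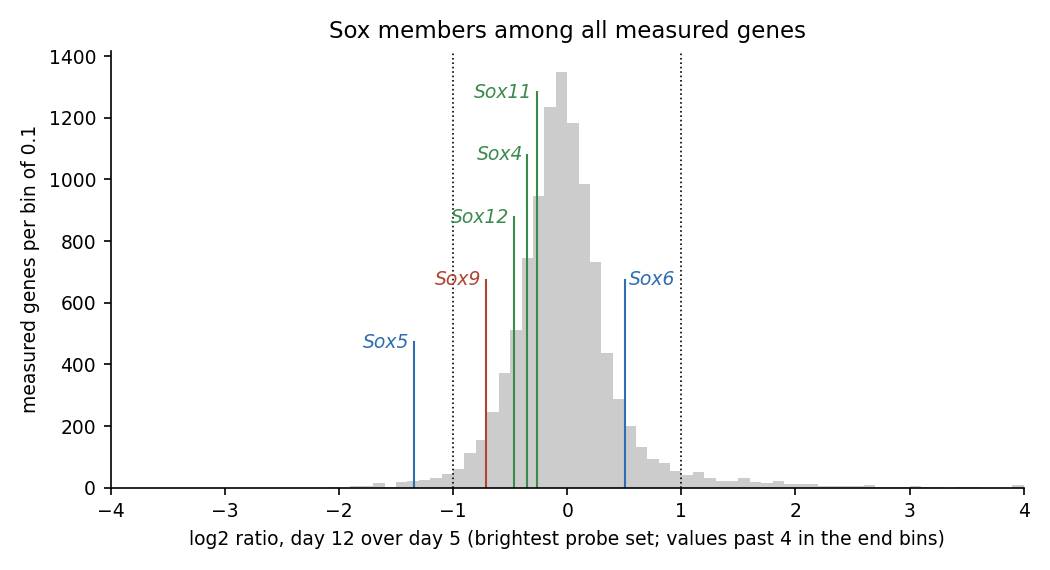
Histogram of the log2 ratio of day 12 over day 5 for the 10479 measured genes in bins of 0.1, with a line for each of the 6 measured Sox genes (the height of a line carries no value). Dotted lines mark 2-fold, Sox5 at -1.34 lies outside them, and the line of Sox11 at -0.26 stands at its bound.

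The 13 other Sox family genes were near or below the limit of measurement. Of their 21 probe sets 1 reached the floor, that of Sox21, with signals of 48.5 at day 12 and 33.4 at day 5, and the gene's ratio is a bound of at least 1.04-fold higher at day 12. The highest signal of any of these probe sets at day 5 was 38.1. Those below the floor included Sox10, which marks glia, Sox2, which marks neural and pluripotent cells, and Sox7, Sox17 and Sox18, which mark endothelium.

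Most of the listed cartilage genes, which Sox9, Sox5 and Sox6 are known to act on or chondrocytes make, were lower at day 12. Sox9 and Sox5 were lower too, while Sox6 was higher. Of the 19 listed, all of them measured, 10 were at least 2-fold lower, none was at least 2-fold higher and 9 lay between. Among all measured genes 1.73% were at least 2-fold lower and 3.56% at least 2-fold higher. The median log2 ratio of the list was -1.29, against -0.05 over all measured genes. The matrilin gene Matn1 stood at 11.5 at day 12 and 1507 at day 5. Ucma and Snorc, which chondrocytes also express, were also below the floor at day 12, with 41.3 and 38.1 at day 12 against 484.2 and 514.0 at day 5. Of the collagen IX genes, Col9a2 had signals of 107.0 at day 12 and 599.8 at day 5, and Col9a3 had 954.2 at day 12 and 3377 at day 5. Col2a1, the main cartilage collagen and the best known Sox9 target, had 4439 at day 12 and 8405 at day 5, a log2 ratio of -0.92. Acan, the aggrecan gene, had a log2 ratio of -0.65. The 4 listed genes with a log2 ratio above 0 were Fgfr3 at 0.49, Papss2 at 0.16, Comp at 0.07 and Col11a1 at 0.04, named here after their values were seen. These are brightest probe sets. Other measured probe sets stood at 0.05 for Fgfr3, at up to 0.67 for Papss2 and at -0.06 for Col11a1. The 6 chondrocyte markers, of which Matn1 was below the floor at day 12, were all lower at day 12, and their part in the difference of Sox9 and Sox5 was not tested.

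Genes of proteins that work with Sox9 showed little difference by their brightest probe sets. Of 9 listed, 8 were measured and none was past 2-fold. Among all measured genes 3.56% were past 2-fold higher and 1.73% lower, so this count is near the share over all genes. The log2 ratios ran from -0.19 for Med12, a Mediator subunit, to 0.18 for Arid5a. Their median was -0.05, the same as over all genes. The acetyltransferase genes Ep300 and Kat5 were both at -0.08, and Zfp219, a zinc-finger partner of Sox9, was at -0.14. Crebbp was at -0.02, but its 4 measured probe sets ranged from -0.54 to -0.01. Ppargc1a lay below the floor on both arrays.

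Of the SoxC-linked genes and Wnt readouts, 5 of 7 were measured, with a median log2 ratio of 0.01. Tead2, a Hippo pathway factor reported as a SoxC target in mice, had signals of 142.0 at day 12 and 287.0 at day 5, 2.02-fold lower at day 12. Tubb3, a neuronal tubulin gene reported as a SoxC target in neurons, went the other way, with 139.4 at day 12 and 58.5 at day 5, 2.38-fold higher. The Wnt target gene Axin2 was at a log2 ratio of 0.01, the β-catenin gene Ctnnb1 at 0.26, and Lef1, which partners β-catenin, at least 1.53-fold lower. For Ctnnb1 the 3 measured probe sets ranged from 0.26 to 0.56. The lower call of Tead2 was lost under 5 of 8 alternatives, where its log2 ratios lay between -0.97 and -0.71.

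Osteoblast genes stood in the opposite direction to most Sox members. Of 17 listed, 12 were named on the array and measured, of which 9 were past 2-fold in the higher direction and none in the lower. Among all measured genes 3.56% were past 2-fold higher and 1.73% lower. The median log2 ratio of the list was 2.49, against -0.05 over all measured genes. The 3 genes short of 2-fold were Col1a1 at 0.63, Sparc at 0.24 and Col1a2 at 0.21. Dmp1, an acidic matrix protein of osteocytes, had signals of 3103 at day 12 and 154.0 at day 5. Ibsp, the bone sialoprotein gene, had 10334 at day 12 and 1098 at day 5. Ifitm5 and Phex, both of mineralising osteoblasts, were 12.1-fold and at least 11.9-fold higher, and Mepe at least 6.47-fold.

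**Figure D4:**
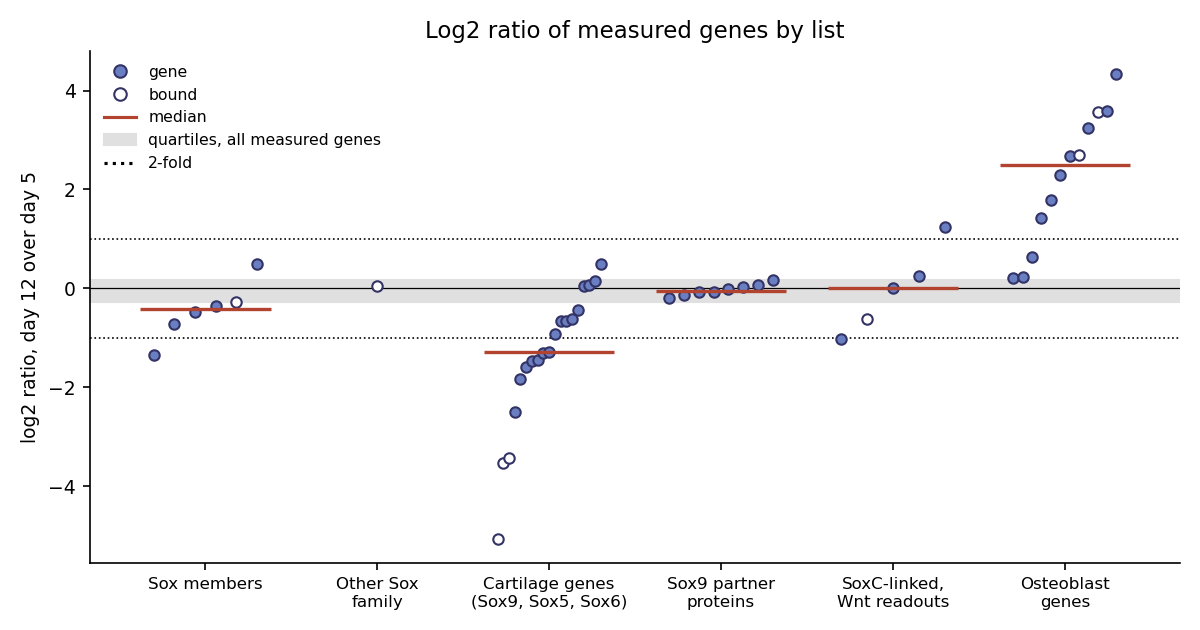
Log2 ratio of day 12 over day 5 for the measured genes of the Sox members and of each gene list, ordered by value within a list. Open circles are bounds, red lines are medians (-0.41 for the Sox members, -1.29 for the cartilage genes and 2.49 for the osteoblast genes), the grey band spans the quartiles of all measured genes and dotted lines mark 2-fold.

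The direction of each of the 6 members held under each alternative that measured it. That of Sox11 was fixed wherever it reached the floor at day 5 only. Sox9 ranged from -0.85 to -0.65 in log2 ratio over 8 alternatives, Sox4 from -0.43 to -0.30 and Sox6 from 0.49 to 0.58. Sox5 ranged from -1.34 to -1.13 over the 7 alternatives that measured it, and was past 2-fold in all 7. With the floor at the 75th percentile Sox5, Sox11 and Sox12 were no longer measured. Sox11 depended most on how low signals were treated, with a log2 ratio of -1.34 with the floor at the 50th percentile, -0.90 with a pseudocount and -0.26 as deposited. Sox8 was measured only with the floor at the 50th percentile, where its log2 ratio was a bound of -0.16.

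**Figure D5:**
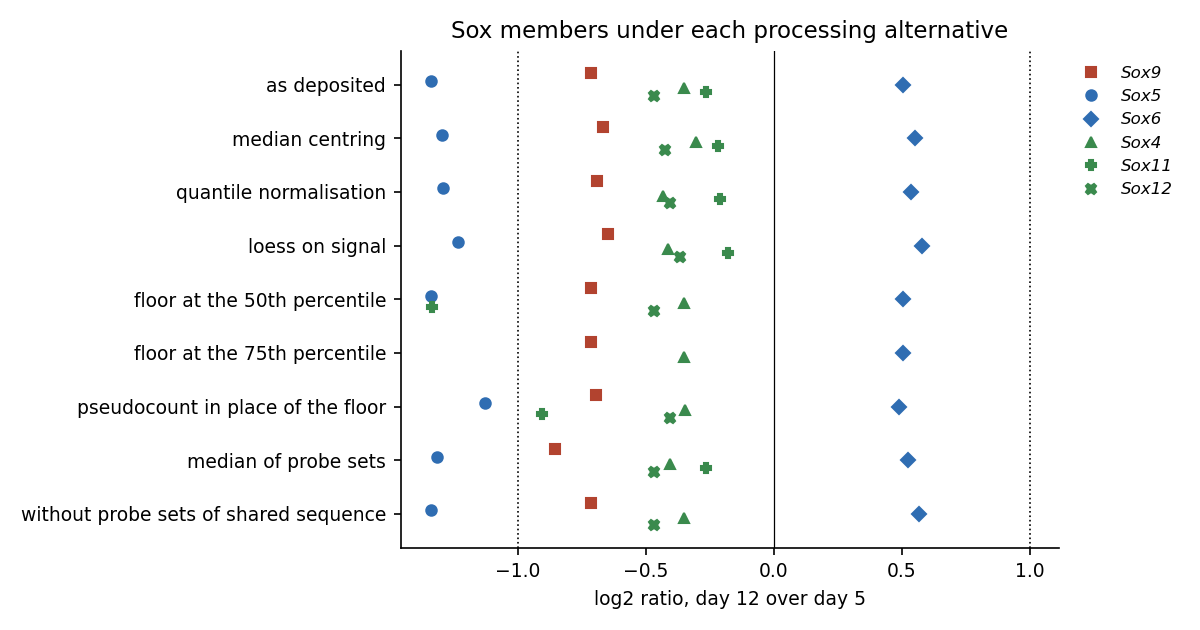
Log2 ratio of day 12 over day 5 of 6 Sox genes under each way of processing, with a symbol for each gene offset slightly up or down within its row so that equal values can be seen. Dotted lines mark 2-fold; a gene without a symbol in a row was below the floor on both arrays or had no probe set left, and Sox11 is the gene that moves furthest between rows.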

How the data were processed

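The authors deposited signal intensity on a linear scale for 45101 probe sets on 1 array per day, and GCOS 1.4 and MAS5 are named, without settings, per the submitters' processing notes. The trimmed mean (2% left out at each end) was 200.0 on both arrays, so the arrays had been scaled to one target and a change in RNA per cell is not visible. No detection call was used here. The number of arrays limits precision.

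Gene names came from the platform annotation, in which 34945 of 45037 carried 1 symbol, updated through the Entrez number in RefSeq GRCm38.p6 for 34741. The brightest probe set by mean log2 signal stood for a gene, and no further normalisation was applied. The members, lists and the rule for named genes were chosen with earlier results of these data known. The rule names all Sox members, measured genes among the other Sox genes, up to 5 members of each other list with the largest absolute log2 ratio, and defining markers. With 2 arrays no likeness between gene patterns was computed. The RefSeq table of start sites held 6 of the 7 members, and protein sequences were not used here.

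Alternatives covered scaling (median centring, quantiles, loess), the floor (50th or 75th percentile, or a pseudocount of 16), the choice of probe sets (their median, or none of shared sequence) and the threshold (1.5-fold or 3-fold). The scripts were first tested on simulated data, with Python 3.11.15, numpy 2.4.6, pandas 2.3.3 and statsmodels 0.14.6.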

Additional observations from a re-analysis of the deposited data

How the results depend on the processing

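The count of Sox members at least 2-fold lower at day 12, 1 as deposited, was 2 with the floor at the 50th percentile, where Sox11 joined Sox5, and 0 with the floor at the 75th percentile, where only 3 members were measured. It was 2 at a threshold of 1.5-fold, which adds Sox9, and 0 at 3-fold. The count of Sox members called higher was 0 under each of the 10 alternatives. Of all measured genes, between 1.67% (at 3-fold) and 7.25% (at 1.5-fold) were called higher under them. The median over measured members stayed below 0 under the 8 alternatives that give one. With the pseudocount, 1 of the 3 Sox5 probe sets was at a log2 ratio of -0.93, short of 2-fold. Median centring moved the median of all measured genes to -0.01 and loess moved it to 0.01. No paired analysis was possible because there was 1 array per day. Dim probe sets limit what can be said of Sox8, Sox11 and the day 12 level of Sox5, which lay below or close to the floor.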
